A study of Mus musculus with 4 samples.

Results

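The 9 genes described here code for neuropeptide precursors (Gal, Trh and Calca) and for receptors of peptides or of adenosine (Adcyap1r1, Vipr1, Adora2a, Adora2b, Ednra and Agtr1a). They were matched by gene symbol, all 9 were found among the 53397 genes in the table, and they had been chosen by their change between the stages in these same libraries, with no numeric cut-off given. Their stage difference is therefore a description and carries no test. The study followed the posterior epiblast, the region that feeds the growing body axis, of wild type embryos at E7.5 (embryonic day 7.5) and at E8.5, in 2 libraries per stage. Genotype (WT) and tissue were shared by both groups, each library came from pooled samples, and how many embryos made up a pool is not given in the sources used here. RNA was copied with SMART-Seq2, which reads polyadenylated transcripts along their length without keeping the strand.

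Neuropeptides are cut from longer precursors inside the secretory pathway, and many are then capped or amidated at their ends before release. Their receptors are mostly G-protein coupled. The receptors for PACAP and VIP (Adcyap1r1, Vipr1) and the adenosine A2 receptors (Adora2a, Adora2b) act mainly through Gs and raise cyclic AMP, whereas the endothelin A receptor (Ednra) and the angiotensin II type 1 receptor (Agtr1a) act mainly through Gq and raise intracellular calcium. Most of these systems are best known from adult brain, gut and vessels, and endothelin A signaling is also known for its role in the pharyngeal arches of the mouse embryo.

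Trh shows how such a precursor is built. Its coding sequence is 771 bases long (256 codons before the stop) and holds 5 copies of the tetrapeptide Gln-His-Pro-Gly between pairs of basic residues, each of which can give one TRH molecule. The copies lie on chromosome 6 of GRCm38, minus strand, in coding exon sequence (GENCODE vM21): chr6:92243088-92243111, chr6:92242992-92243015, chr6:92242857-92242880, chr6:92242803-92242826 and chr6:92242710-92242733. They are given below in that order, with the Gln-His-Pro-Gly codons in capitals and the codons of the flanking basic pairs in lower case. All 5 nucleotide sequences were distinct.
Trh copy 1: aaacgcCAGCATCCGGGCaaaagg
Trh copy 2: aaacgaCAGCACCCTGGCcgacgt
Trh copy 3: aagcggCAGCACCCTGGCaggcga
Trh copy 4: aagaggCAGCATCCAGGCcggagg
Trh copy 5: aaacgtCAGCATCCTGGCaaaagg

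Promoter windows from RefSeq (GRCm38.p6, 250 bases before to 50 bases after the annotated start) were found for 7 of the 9 genes. Those of the 3 genes with the widest differences, Gal, Trh and Adora2b (all lower at E8.5), are shown with that of Ednra, the gene with the largest increase among the 9. They cover chr19:3414495-3414794 (minus strand), chr6:92244601-92244900 (minus), chr8:77724403-77724702 (minus) and chr11:62248734-62249033 (plus). Capitals mark matches to the GC box (GGGCGG or CCGCCC), the half-site of the cyclic AMP response element, CRE (TGACG or CGTCA), and the TATA box core (TATAA or TTATA), searched on both strands.
Gal promoter: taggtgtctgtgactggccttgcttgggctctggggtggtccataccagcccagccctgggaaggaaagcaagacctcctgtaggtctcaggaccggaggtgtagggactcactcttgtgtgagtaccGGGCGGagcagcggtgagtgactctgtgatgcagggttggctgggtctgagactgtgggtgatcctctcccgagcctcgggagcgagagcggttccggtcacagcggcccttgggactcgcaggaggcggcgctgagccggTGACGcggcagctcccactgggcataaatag
Trh promoter: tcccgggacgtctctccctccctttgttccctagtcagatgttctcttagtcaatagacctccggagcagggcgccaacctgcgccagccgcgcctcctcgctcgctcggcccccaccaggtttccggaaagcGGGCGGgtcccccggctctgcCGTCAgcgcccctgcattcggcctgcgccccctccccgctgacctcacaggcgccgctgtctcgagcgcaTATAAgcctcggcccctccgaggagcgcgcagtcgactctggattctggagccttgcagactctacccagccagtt
Ednra promoter: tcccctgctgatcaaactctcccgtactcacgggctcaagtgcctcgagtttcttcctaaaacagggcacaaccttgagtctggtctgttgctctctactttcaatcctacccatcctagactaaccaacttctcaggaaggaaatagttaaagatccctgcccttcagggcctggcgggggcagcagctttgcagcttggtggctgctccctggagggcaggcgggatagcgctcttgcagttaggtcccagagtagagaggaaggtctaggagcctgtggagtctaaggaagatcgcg
Adora2b promoter: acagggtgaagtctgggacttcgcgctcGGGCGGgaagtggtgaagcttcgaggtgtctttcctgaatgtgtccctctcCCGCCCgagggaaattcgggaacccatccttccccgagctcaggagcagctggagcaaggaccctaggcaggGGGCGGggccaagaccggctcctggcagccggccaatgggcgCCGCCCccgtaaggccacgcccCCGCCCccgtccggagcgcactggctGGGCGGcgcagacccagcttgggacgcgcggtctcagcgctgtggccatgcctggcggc

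The Gal and Trh windows each held 1 CRE half-site and 1 GC box, and the Trh window also held 1 TATA box core. The Adora2b window held 6 GC boxes and no CRE half-site, and the Ednra window held no match to any of these motifs. Of the windows not printed, those of Calca and Vipr1 held 1 CRE half-site each and that of Adcyap1r1 none. Vipr1 had 4 GC boxes, one of which overlaps its CRE half-site, Adcyap1r1 had 1 and Calca 0. Across all 32851 windows of 300 bases, 20.8% held a CRE half-site, 35.7% a GC box and 24.9% a TATA box core. A match describes the letters only.

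All 3 peptide precursor genes were lower at E8.5. Gal, which codes for galanin (chr19:3409915-3414544, minus strand), had normalized counts of 30.3 and 28.3 at E7.5, compared with 0.420 and 0.835 at E8.5. Both E7.5 libraries stood far above both E8.5 libraries, which held 24 reads between them against 1097. The means were 29.3 ± 1.41 and 0.628 ± 0.294 (SD, n = 2), a level 46.7-fold lower at E8.5, and the ratio of reads scaled to library size was 46.6, with an exact 95% binomial interval of 31.1 to 73.0. Such intervals cover counting error only.

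Trh (chr6:92242061-92244650, minus strand) had the highest level of the 9 genes at E7.5. It read 99.2 and 97.7 at E7.5 against 4.83 and 6.004 at E8.5, with means of 98.5 ± 1.04 and 5.42 ± 0.832 (SD, n = 2). The level was 18.2-fold lower at E8.5 (interval 15.8 to 21.0), from 3692 and 207 reads, and the groups lay far apart. Calca codes for calcitonin and for the calcitonin gene-related peptide, CGRP, by alternative splicing, and counts per gene cannot separate them (chr7:114631478-114636357, minus strand). Its values were 3.82 and 5.73 at E7.5, compared with 2.31 and 1.78 at E8.5. The groups did not overlap, but the gap between them was smaller than the distance between the E7.5 libraries. The mean went from 4.78 ± 1.35 to 2.04 ± 0.377 (SD, n = 2), 2.34-fold lower (interval of the read ratio 1.80 to 3.12).

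**Figure D1:**
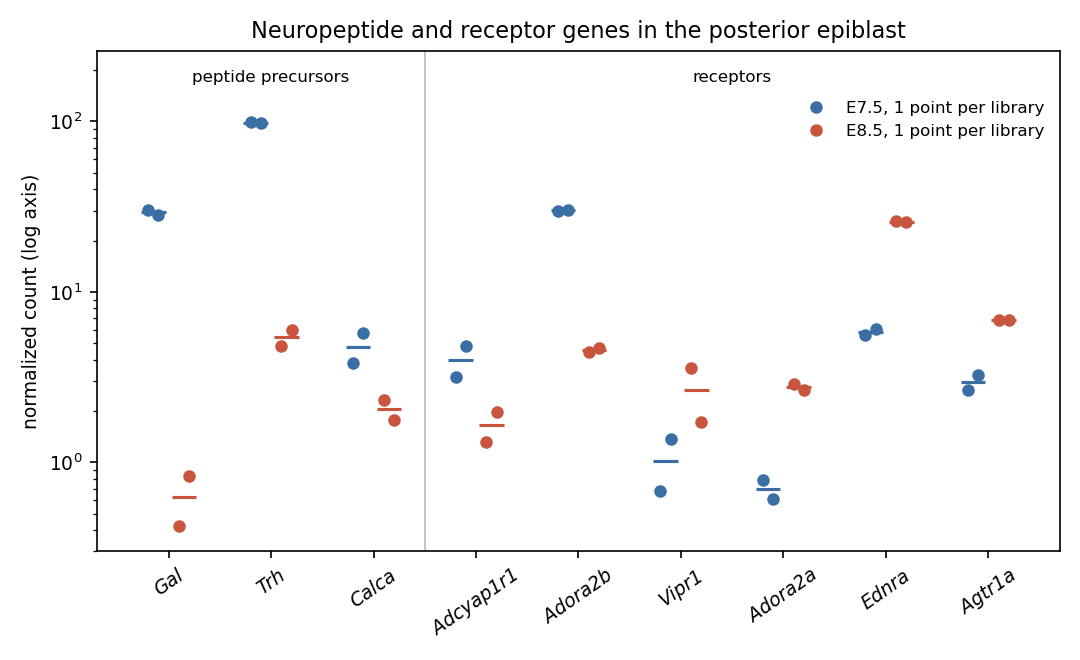
Normalized counts of the 9 genes in each library on a log axis, with 1 point per library and a horizontal bar at the stage mean (n = 2). Gal, Trh and Adora2b lie near or above 30 at E7.5 and below 7 at E8.5, Ednra lies near 26 at E8.5, and the E7.5 and E8.5 points do not overlap for any gene.

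Of the 6 receptor genes, 2 were lower and 4 higher at E8.5. Adora2b codes for the A2b adenosine receptor, the lower-affinity member of the A2 pair (chr11:62248984-62266453, plus strand). It had 30.0 and 30.2 at E7.5 against 4.41 and 4.70 at E8.5. Replicates differed by under 0.5 at either stage, and the mean was 6.61-fold lower at E8.5 (30.1 ± 0.191 and 4.55 ± 0.206, SD, n = 2, interval of the read ratio 5.63 to 7.80). Adora2a, the high-affinity A2a receptor (chr10:75316877-75334784, plus strand), went the other way, with 0.787 and 0.609 at E7.5, compared with 2.89 and 2.66 at E8.5. Its mean was 3.98-fold higher at E8.5 (0.698 ± 0.126 and 2.77 ± 0.158, SD, n = 2, interval 2.59 to 6.41), from 26 and 106 reads.

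The pair differed in level as well as in direction. Per 1000 bases of exon, the scale used here to compare levels between genes, Adora2b had a mean normalized count of 16.3 at E7.5 against 2.47 at E8.5, and Adora2a 0.228 and 0.906. Adora2a thus made up 1.56% and 1.20% of the A2 sum at E7.5, compared with 28.3% and 25.5% at E8.5, while the sum went from 16.5 to 3.37. Adora2b remained the more abundant of the pair in every library.

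Adcyap1r1 codes for the PACAP receptor PAC1 (chr6:55451978-55501451, plus strand) and read 3.15 and 4.82 at E7.5 against 1.31 and 1.98 at E8.5. The mean was 2.42-fold lower at E8.5 (3.98 ± 1.18 and 1.65 ± 0.475, SD, n = 2, interval 1.81 to 3.33). The Adcyap1r1 groups did not overlap, but the gap between them was smaller than the distance between the E7.5 libraries. Vipr1, which codes for a receptor that binds both VIP and PACAP (chr9:121642716-121672954, plus strand), had 0.674 and 1.37 at E7.5, compared with 3.57 and 1.72 at E8.5. Its groups did not overlap, yet the E8.5 libraries differed from each other by more than the lower of them differed from the higher E7.5 library. The mean was 2.59-fold higher at E8.5 (1.02 ± 0.491 and 2.65 ± 1.30, SD, n = 2, interval 1.74 to 3.78), from 39 and 101 reads. On the log2(value + 1) scale its difference was 0.82, and 0.45 without E8.5 replicate 1. Per 1000 bases, Vipr1 made up 19.6% and 24.4% of the sum of Vipr1 and Adcyap1r1 at E7.5, whereas it made up 75.6% and 49.7% at E8.5.

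Ednra, the receptor for endothelin 1 and endothelin 2 (chr8:77663031-77724464, minus strand), had 5.56 and 6.04 at E7.5 against 26.1 and 25.6 at E8.5. The libraries of a stage lay close together, and the mean was 4.46-fold higher at E8.5 (5.80 ± 0.333 and 25.9 ± 0.388, SD, n = 2, interval 3.84 to 5.18). An overlapping transcript on the other strand, 4933431K23Rik, shares 1.66% of the Ednra exon length, and reads there cannot be told apart. Agtr1a, a receptor for angiotensin II (chr13:30336441-30382867, plus strand), had 2.64 and 3.25 at E7.5, compared with 6.82 and 6.84 at E8.5, a mean 2.32-fold higher (2.94 ± 0.427 and 6.83 ± 0.0127, SD, n = 2, interval 1.84 to 2.91). Both E8.5 values lay more than 3 above the E7.5 values. Agtr1a has a near-identical paralog in mouse, Agtr1b, so that reads can be split between them and the level of either is uncertain.

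On the log2(value + 1) scale the differences, E8.5 minus E7.5, were -4.23 for Gal, -3.96 for Trh, -2.49 for Adora2b, -0.91 for Calca and -0.90 for Adcyap1r1. They were 1.98 for Ednra, 1.15 for Adora2a, 0.99 for Agtr1a and 0.82 for Vipr1. All 9 genes passed the filter on low values (at least 1 in at least 2 libraries), 3 of them through 1 stage only, and the groups did not overlap in 9 of 9. Among all 13903 genes that passed, 76.3% had groups that did not overlap. Over all 13903 genes that passed, 25.6% were called higher and 26.4% lower (limma, Benjamini-Hochberg adjusted p under 0.05), and 4.48% and 6.35% were so called with at least a 2-fold change on that scale. Of the 9 genes, 5 differed by at least 2-fold on it. Since the genes were chosen by this contrast, nothing is read from these shares. In bulk tissue, fewer cells of a type and less RNA per cell cannot be told apart.

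The order of the levels changed between the stages. Per 1000 bases of exon, the mean normalized counts at E7.5 ran from Trh (71.1) and Gal (37.2) through Adora2b (16.3) and Calca (2.84) to Ednra (1.06), Agtr1a (1.06), Adcyap1r1 (0.603), Adora2a (0.228) and Vipr1 (0.176). The libraries of Ednra and Agtr1a overlapped at E7.5, as did those of Adora2a and Vipr1. At E8.5 Ednra (4.72) led, followed by Trh (3.91), Adora2b (2.47), Agtr1a (2.45), Calca (1.21), Adora2a (0.906), Gal (0.796), Vipr1 (0.456) and Adcyap1r1 (0.250). Adora2b and Agtr1a overlapped there, as did Calca and Gal, Adora2a and Gal, Gal and Vipr1, and Vipr1 and Adcyap1r1. Exon length was the union over all annotated transcripts, which understates the level where a shorter transcript was used.

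Other genes of the same systems were not used in choosing the 9, and their stage difference was tested. Of 65 such partner genes, 29 passed the filter, of which 10 were higher and 13 lower at E8.5, with a median log2 difference of -0.16 against -0.0074 over all genes tested. Of these 29, 8 reached the minimum in both libraries of 1 stage only, and the 7 called among them (Adm, Calcr, Gcgr and Enpep lower, Glp1r, Enpp1 and Agtr1b higher) had to be high at that stage to be tested. With no filter on low values, each of these 7 also had an adjusted p under 0.05 in limma. That fit used the same 4 libraries, and the genes were named for having passed the filter, so it adds no support. For galanin and TRH, no partner passed. Galr2, a galanin receptor, had 8 and 6 reads at E7.5 against 1 and 2 at E8.5, Galr1 had 0, 0, 3 and 3, and Galr3 had 1, 1, 2 and 3. The TRH receptor genes Trhr and Trhr2 had 0 reads in all 4 libraries. A count of 0 allows up to 3 reads per stage, a normalized count of 0.0800 at the earlier stage and 0.0785 at the later, so transcripts of both TRH receptors were not detectable at this depth at either stage.

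In the calcitonin family, one receptor gene rose and another fell. Calcrl, which pairs with RAMP proteins to form the CGRP and adrenomedullin receptors, had 2.92 and 3.499 at E7.5 against 24.1 and 24.6 at E8.5, a rise of 2.59 ± 0.14 on the log2 scale (SE, limma adjusted p = 6.8e-10). Calcr, the calcitonin receptor, had 1.24 and 2.28 at E7.5, compared with 0.0525 and 0 at E8.5, a difference of -1.40 on the log2 scale (adjusted p = 4.2e-05). Per 1000 bases, Calcrl made up 65.4% and 55.1% of the Calcrl and Calcr sum at E7.5 against 99.7% and 100% at E8.5. Adm, the adrenomedullin precursor and another ligand of Calcrl, had 9.16 and 11.1 at E7.5, compared with 0.420 and 1.04 at E8.5 (log2 difference -2.70, adjusted p = 2.3e-08). Calca and Adm were thus both lower where Calcrl was higher. Ramp2, which makes Calcrl an adrenomedullin receptor, did not pass the test (0.16, adjusted p = 0.34) and shares 33.4% of its exon length with Vps25 on the same strand, so that reads there cannot be told apart. Ramp1, which makes it a CGRP receptor, had 6 and 6 reads at E7.5 against 1 and 2 at E8.5.

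The ligands of Adcyap1r1 and Vipr1 were nearly undetected. Vip had 0 reads in all libraries, and Adcyap1, the PACAP precursor, had 7 and 10 reads at E7.5, compared with 13 and 3 at E8.5. Vipr2, the other receptor shared by VIP and PACAP, had 6, 4, 7 and 19 reads. Of the wider secretin family, Glp1r, the GLP-1 receptor, rose by 0.88 on the log2 scale (0.843 and 0.913 to 2.41 and 2.51, adjusted p = 0.00054), and Gcgr, the glucagon receptor, fell by 1.32 (2.59 and 1.98 to 0.367 and 0.261, adjusted p = 2.5e-05). Sct, the secretin precursor, rose by 0.58 (adjusted p = 0.0071), and by 0.49 to 0.66 with 1 library left out. Its call was lost without E7.5 replicate 2 or E8.5 replicate 2.

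**Figure D2:**
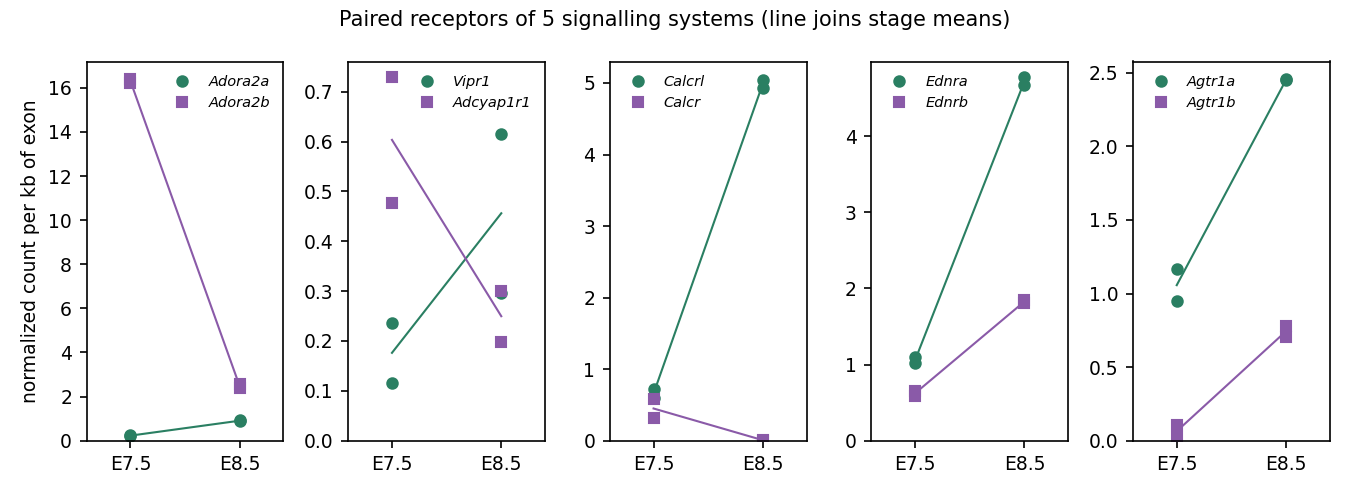
Normalized count per 1000 bases of exon for paired receptors in each library (points) with a line joining the stage means (n = 2), each panel on its own axis from 0. Adora2b went from 16.3 to 2.47 while Adora2a stayed under 1, Vipr1 and Adcyap1r1 crossed with wide spread, and Calcrl separated from Calcr at E8.5.

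Around the adenosine receptors, 3 partner genes rose and 5 fell among 9 tested. The genes that rose code for ectoenzymes of the extracellular nucleotide pathway. Nt5e (CD73), which releases adenosine from AMP, had 10.1 and 10.4 at E7.5 against 15.2 and 17.6 at E8.5 (log2 difference 0.63, adjusted p = 0.00065). Entpd1 (CD39), which degrades ATP and ADP, rose by 0.73 (adjusted p = 0.0022) and Enpp1, which hydrolyses ATP, by 0.95 (adjusted p = 0.00038). The genes that fell code for nucleoside transporters, adenosine deaminase and an enzyme that splits S-adenosylhomocysteine. Slc29a1, an equilibrative nucleoside transporter, had 43.1 and 39.8 at E7.5, compared with 15.3 and 15.5 at E8.5 (-1.37, adjusted p = 1.8e-08). Slc28a2, a concentrative one, fell by 1.81 (adjusted p = 2.8e-07), Slc29a2 by 0.57 (adjusted p = 0.00082) and Ada, adenosine deaminase, by 0.87 (12.6 and 12.2 to 6.24 and 6.42, adjusted p = 7.1e-05). Ahcy, which splits S-adenosylhomocysteine, fell by 0.24 (adjusted p = 0.011), with log2 differences of -0.28 to -0.19 when 1 library was left out. Its call was lost without E7.5 replicate 1 or E8.5 replicate 2. Adk, adenosine kinase, had 196 and 218 at E7.5 against 225 and 224 at E8.5 (log2 difference 0.12, adjusted p = 0.12). That difference was 0.040 to 0.20 with 1 library left out, and Adk was called higher without E7.5 replicate 2. Of the other adenosine receptors, Adora1 had 9, 12, 5 and 5 reads and Adora3 had 0 in all libraries.

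The other endothelin receptor gene was also higher at E8.5. Ednrb, which binds all endothelins, had 2.53 and 2.79 at E7.5, compared with 7.71 and 7.88 at E8.5 (log2 difference 1.27 ± 0.15, SE, adjusted p = 7.4e-06). Ednra made up 63.2% and 62.8% of the per-length sum of both receptors at E7.5 against 72.5% and 71.7% at E8.5, and the sum went from 1.68 to 6.55. Ece1, the enzyme that releases active endothelin, rose by 0.58 (40.7 and 40.9 to 64.1 and 58.9, adjusted p = 1.9e-05). The ligands were low. Edn1 had 0 and 5 reads at E7.5, compared with 8 and 13 at E8.5, Edn2 had 3, 1, 0 and 0 reads, and Edn3, which acts mainly on Ednrb, had 4.78 and 5.98 at E7.5 against 3.62 and 3.03 at E8.5 (-0.56, adjusted p = 0.012). The call for Edn3 was lost without E7.5 replicate 2 (adjusted p = 0.11) or E8.5 replicate 2 (0.085), and so was that for Mme, a peptidase that degrades several small peptides (-0.34, adjusted p = 0.035, then 0.21 and 0.25).

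Agtr1b rose from 0.225 and 0.0507 to 1.68 and 1.51 (log2 difference 1.19, adjusted p = 6.2e-05). Agtr1a made up 90.1% and 98.0% of the per-length sum of both paralogs at E7.5, compared with 75.8% and 77.7% at E8.5, with the limit given for near-identical genes. Agtrap, which codes for a protein that binds the type 1 receptor and promotes its internalization, fell from 54.0 and 52.4 to 10.3 and 11.6 (-2.18 ± 0.10, SE, adjusted p = 1.3e-10). Enpep, the aminopeptidase that trims angiotensin II, fell by 1.58 (adjusted p = 1.2e-05). Lnpep, another aminopeptidase, rose by 0.53 (adjusted p = 0.00074), and Atp6ap2, the prorenin receptor, fell by 0.40 (adjusted p = 0.0022) and by 0.21 without E7.5 replicate 2. The ligand side was near the floor. Agt, the angiotensinogen precursor, had 1, 1, 0 and 1 reads, Ren1 had 9, 1, 19 and 13, and Ace had 11, 8, 17 and 13. Agtr2, the angiotensin II type 2 receptor gene, had 0 reads in every library.

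**Figure D3:**
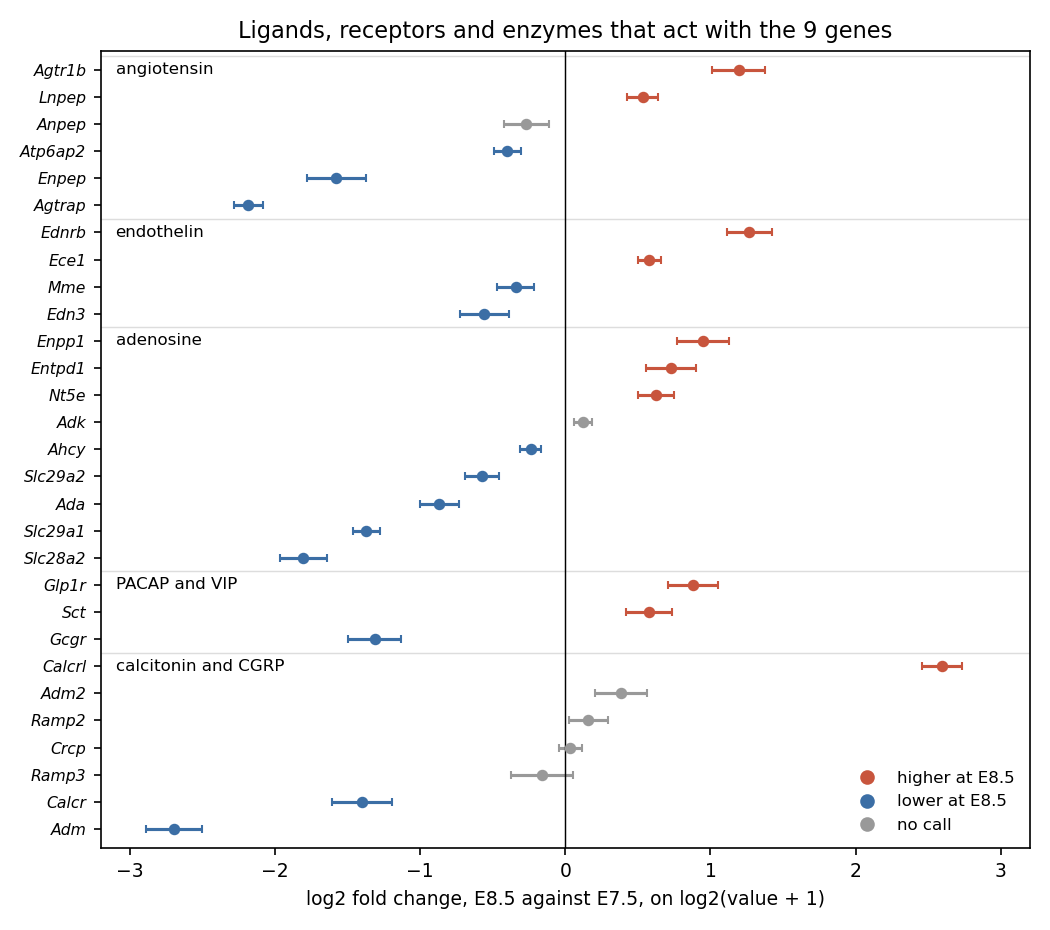
Log2 difference on log2(value + 1), E8.5 minus E7.5, for the partner genes that passed the filter, grouped by system, with bars of 1 SE from limma (n = 2 per stage). Colors give the call at an adjusted p under 0.05. Calcrl (2.59) and Adm (-2.70) mark the ends of the range.

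Of 18 genes of peptide precursor processing, 15 passed the filter. Of these, 5 rose and 5 fell, with a median log2 difference of -0.023. Pcsk5, a convertase that cuts at basic residues, rose from 13.0 and 11.3 to 26.8 and 33.2 (1.23, adjusted p = 9.0e-07), and Qpct, which forms the N-terminal pyroglutamate found in TRH, rose by 1.31 (0.843 and 1.01 to 3.73 and 3.81, adjusted p = 1.4e-05). Pcsk2, a neuroendocrine convertase, fell by 1.22 (1.69 and 2.49 to 0.315 and 0.313, adjusted p = 6.8e-05). Pcsk1n, which codes for an inhibitor of Pcsk1, fell by 2.17 (adjusted p = 5.6e-08) and overlaps Eras on the other strand.

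Most other peptide and amine systems were scarcely expressed. Of 53 other peptide ligand genes, 8 passed the filter, with 3 higher and 4 lower, and of 64 other peptide receptor genes 10 passed, with 4 higher and 3 lower. Apln, the apelin precursor, fell from 126 and 121 to 15.7 and 16.6 (-2.86, adjusted p = 3.0e-13), and its receptor gene Aplnr from 172 and 186 to 96.0 and 90.6 (-0.93, adjusted p = 2.0e-08). Tac2, the neurokinin B precursor, fell by 0.70 (adjusted p = 0.0039), while Penk, the enkephalin precursor, rose by 1.57 (2.59 and 2.13 to 8.76 and 9.08, adjusted p = 9.9e-07) and Cck, the cholecystokinin precursor, by 0.87 (adjusted p = 0.00085). Among receptors, Npr3, which clears natriuretic peptides, rose by 1.63 (adjusted p = 2.3e-06), Npbwr1, for neuropeptides B and W, by 1.59 (adjusted p = 3.6e-06), and Pth1r, for parathyroid hormone and its related peptide, fell by 1.52 (adjusted p = 6.7e-07). Of 36 amine receptors 4 were tested. Adra2b and Adrb3, which code for adrenergic receptors, fell by 1.08 and 1.02 (adjusted p = 0.00021 and 0.00055). Among 8 tested genes of amine synthesis and removal, 2 rose and 4 fell, with Hdc, which makes histamine, down by 1.30 (adjusted p = 2.3e-05) and Ddc, which makes dopamine and serotonin, down by 1.20 (18.7 and 18.5 to 7.24 and 7.83, adjusted p = 1.3e-06). Maoa, which degrades amines, rose by 0.46 (adjusted p = 6.0e-05).

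Downstream of the Gs-coupled receptors, 7 of 23 tested cyclase, kinase and phosphodiesterase genes rose and 4 fell (median -0.013). Pde4b, which degrades cyclic AMP, rose from 3.32 and 2.79 to 15.1 and 14.7 (1.97, adjusted p = 3.4e-08), and Pde3b by 0.83 (adjusted p = 1.8e-05). The cyclase genes Adcy9 and Adcy8 fell by 0.91 and 0.87 (adjusted p = 0.0015 and 0.00073). Of 13 tested genes that act in or respond to cyclic AMP signaling, 4 rose (median 0.11). Nr4a1, an early response gene, rose by 0.83 (adjusted p = 0.00072) and Creb1, a factor that binds the CRE, by 0.53 (89.5 and 102 to 141 and 135, adjusted p = 1.9e-05). Over all 14 lists together, 36 of 110 tested genes were higher and 35 lower, with a median of -0.052. Of these, 31 reached the minimum value in both libraries of 1 stage only, and 23 of the 31 were called, each higher at that stage. Besides the 7 partner genes, they include Pcsk2, Pcsk1n, Qpct, Tac2, Cck, Npr3, Npbwr1, Adra2b, Adrb3, Hdc and Adcy9. All of them had to be high at that stage to be tested, which limits their adjusted p-values.

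Markers of other cell types moved over the same interval, and not all of the 14 marker lists are described here. Of 15 tested visceral endoderm markers, 14 were lower at E8.5. Their summed value was 2695 and 2594 at E7.5 against 459 and 471 at E8.5, a decrease of 5.69-fold in the sum. The markers called lower ranged from Lrp2 (2.499-fold) to Spink1 (16.3-fold), and Apoc2, with 2 reads at the earlier stage and 0 at the later, was too low to be tested. Trophoblast markers summed to 111 and 99.9 at E7.5, compared with 32.8 and 32.0 at E8.5, with 4 of 6 lower. Node and notochord markers summed to 118 and 121 at E7.5 against 114 and 115 at E8.5, with 5 of 9 lower and 3 higher. Among them Foxj1 was 34.1-fold and Pifo 21.8-fold lower, whereas Shh was 4.09-fold higher. Over the same libraries Gal and Trh were 46.7-fold and 18.2-fold lower. Endothelium markers were higher in 10 of 12 and went in sum from 79.9 and 78.0 to 270 and 249, 3.29-fold, beside the 4.46-fold higher Ednra. Among them Plvap was 8.26-fold, Cdh5 7.94-fold and Tie1 19.1-fold higher, the last from 14 reads at E7.5. The endothelium markers called higher ranged from Pecam1 (2.19-fold) to Emcn (55.8-fold, from 2 reads at E7.5). Eng (1.32-fold) and Flt1 (1.02-fold) had no call. Neural plate markers went in sum from 39.8 and 36.4 to 120 and 113 (3.05-fold), with 3 of 6 tested higher and 1 lower. Ncam1 carried most of that rise (means of 19.4 and 92.7), while Sox2 (4.65 and 4.92) had no call and Sox3 was lower. Neural crest markers went from 48.3 and 46.8 to 71.1 and 74.4, with 2 of 5 tested higher and Foxd3 at 0 reads. Lateral plate and cardiac markers went from 124 and 118 to 167 and 164. Of these, 4 of 8 tested were higher, among them Prrx1 (15.7 and 65.5), and 2 lower, among them Gata4 (48.0 and 7.75). Primitive blood markers went in sum from 13.0 and 12.9 to 411 and 416, with the embryonic globin genes Hbb-y and Hba-x at 0 reads at E7.5. Globin genes carried most of the E8.5 sum (means of 199 for Hbb-bh1, 131 for Hba-x and 61.6 for Hbb-y). Of 9 blood markers tested, 8 were higher and 1, Runx1, was lower (means of 7.78 and 1.81), while Gata1 was too low to be tested. The 11 markers of posterior epiblast and streak measured were detected at both stages, with a sum of 1461 and 1487 at E7.5 against 943 and 904 at E8.5. Of these 11, 7 were called lower, among them Cdh1 (4.92-fold) and Cdx1 (3.13-fold), and 3 higher, among them Fgf8 (2.59-fold). The part of these cell types in the values of the 9 genes was not tested.

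**Figure D4:**
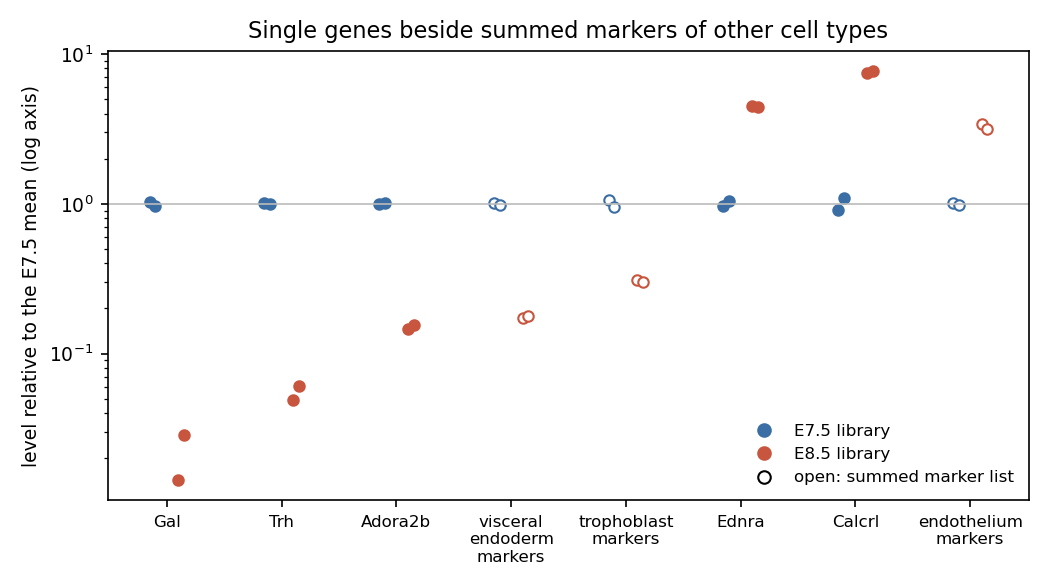
Level in each library relative to the E7.5 mean, on a log axis, for single genes (filled points) and for summed marker lists (open points), with E7.5 in blue and E8.5 in red. Gal was 46.7-fold and Trh 18.2-fold lower at E8.5 and the visceral endoderm sum 5.69-fold lower, whereas Ednra was 4.46-fold and the endothelium sum 3.29-fold higher, and single markers within a sum moved by more or less than the sum.

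The genes most like the extremes of the set were taken by the root mean square difference in log2(value + 1) over the 4 libraries, among the other 13902 genes that passed. Closest to Gal were Lefty2, an antagonist of Nodal (difference 0.157, with 29.4 and 32.4 at E7.5, compared with 0.682 and 0.783 at E8.5), Foxj1, a regulator of motile cilia (0.314), and Mesp1, a factor of early mesoderm (0.404). Only 4 genes came within 0.5 of Gal, against 66 within 0.5 of Ednra. Closest to Ednra were Hoxd9 (0.0642, with 5.68 and 6.49 at E7.5 against 24.8 and 24.7 at E8.5), Fut4, a fucosyltransferase (0.110), and Ciart, a circadian repressor (0.152). With 2 stages and 4 libraries, a match says that levels were alike at each stage and no more.

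Sequencing depth was similar in all libraries. Between 18488218 and 19493342 reads per library were assigned to genes, and 1 read was worth a normalized count of 0.0507 to 0.0562. A single gene, CT010467, held 25.6% of all normalized counts in replicate 1 of E7.5 and 18.5% to 18.9% in the others. Without that library the difference was -4.18 for Gal, -3.95 for Trh and 1.93 for Ednra on the log2(value + 1) scale.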

How the data were processed

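Total RNA from 2 pooled samples of posterior epiblast per stage was made into SMART-Seq2 libraries, which the authors sequenced single-end over 75 bases and aligned to mm10 using STAR. The paper's methods name DESeq2 for normalization and testing, whereas the labels name edgeR. The counting program and annotation are not given in the sources used here. The deposited signal values are normalized counts per gene, scaled per library by the authors. Whole reads could be recovered for 100% of values within 1.0e-04 reads.

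Genes at 1 or more in at least 2 libraries were kept (13903) on the log2(value + 1) scale, and stages were compared with limma 3.58.1 (R 4.3.3, eBayes with trend, 2 residual and 12.8 prior degrees of freedom) with Benjamini-Hochberg adjustment over all genes kept. Fold changes on this scale understate those of low genes. An exact permutation test of 2 against 2 libraries cannot go below 0.333. The paper describes the 2 libraries of a stage as separate biological replicates. The p-values rest on the spread between them and, with more weight, on a variance trend over all genes kept (12.8 prior against 2 residual degrees of freedom). Alternatives were edgeR 4.0.16 and DESeq2 1.42.0 on the recovered reads, other pseudocounts, filters and scalings, a replicate block and each library left out. The fit was tested on simulated data.

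The 9 genes and the lists (14 of signaling genes, 14 of markers) were chosen with earlier results of these data known. Partner genes that passed the filter were named freely, and of the other signaling lists up to 2 called genes that rose most and 2 that fell most, apart from items not reported here. Markers were described by sums, and single markers were named after their values were seen. In 3 cases a symbol was shared by several entries and was left out. Positions and exon lengths came from GENCODE vM21, which holds 53311 (99.8%) of the identifiers, and promoters from RefSeq.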

Additional observations from a re-analysis of the deposited data

How the results depend on the processing

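All 9 genes kept their direction under each of the alternatives that gave them a value, with log2 differences between -5.53 and -2.85 for Gal, -4.17 and -3.45 for Trh, 1.61 and 2.17 for Ednra and 0.39 and 1.37 for Vipr1. The ends came from edgeR or DESeq2 on reads and from a pseudocount of 4. Over all 9 genes and alternatives, the log2 difference moved by at least the SD within stages in 36 cases and by less in 77. The 9 genes were chosen by this contrast in these same libraries, so a kept direction lends it no support. At a minimum value of 5, which keeps fewer genes, 21 signaling genes were higher and 21 lower in place of 36 and 35. Leaving out 1 library gave 29 to 33 higher and 29 to 32 lower signaling genes, and 2678 to 3424 higher and 2817 to 3382 lower genes in all. With libraries scaled to equal totals, 3843 genes were higher and 2568 lower (59.9% higher) in place of 3562 and 3671 (49.2%), and the median moved to 0.074. The edgeR test on recovered reads called 3633 and 3539 genes, and DESeq2 2828 and 2798.

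Replicate numbers gave no sign of pairing (correlation of deviations from stage means -0.0025 over 13903 genes). A fit with a replicate block called 3598 genes higher and 3660 lower, and 36 and 35 signaling genes.

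Of 47 called partner and other named genes, 10 lost the call under at least 1 of 13 alternatives: Adcy9, Ahcy, Atp6ap2, Edn3, Entpd1, Lnpep, Mme, Sct, Slc18a2 and Tac2. The cause of the lost calls was not tested. With 39 and 101 reads per stage for Vipr1 and 26 and 106 for Adora2a, depth limits the precision of their folds.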
